A study of Mus musculus with 2 samples.

Results

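The Sfmbt2 microRNA cluster was measured in heart tissue of 10-day-old male mice. Its members were taken as every counted microRNA gene that the GENCODE M21 annotation places wholly inside the Sfmbt2 gene body on chromosome 2 and on the same strand, which gave 119 of the 2202 genes in the tables. The choice of members used position alone and no measured value. By name the members comprised 29 Mir669 genes, 23 Mir466 genes, 14 Mir467 genes and 5 Mir297 genes, with 48 genes that carry only a Gm number. Of these Gm genes, 1 had any count.

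The study deposited 2 microRNA sequencing libraries, made from total RNA of size class under 30 and labelled as biological replicates 1 and 2 of 1 group. Both came from mice of the strain B6CASTF1/J, the first generation cross of C57BL/6J and CAST/EiJ, with no treatment or engineered allele in the labels. The labels carry 1 donor identifier for both libraries beside separate sample identifiers, so the spread between the libraries may be partly technical. With 1 group there is no contrast between conditions, and the counts do not separate the parental alleles.

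Sfmbt2 encodes a polycomb group protein with malignant brain tumor repeats and is an imprinted mouse gene, read from the paternal allele in the early embryo and in extraembryonic tissue. A long intron of the mouse and rat gene carries a large array of tandemly duplicated microRNA genes rich in TG and CA repeats, and in mice the array is needed for normal growth of the placenta. A microRNA is cut from a hairpin in a longer transcript, and bases 2 to 8 of the mature strand, the seed, lead its pairing with target messages. Of the array's products, miR-669a has been described as a repressor of MyoD, the skeletal muscle regulator, in cardiac progenitor cells.

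Copies with the same family names elsewhere in the genome are shown here, and their mature sequences need not be those of the members. Of the genes shown, Mir669n shares no stretch of 20 bases with a member. Mir466q shares one with 1 member, Mir467h with 3, Mir466i with 4 and Mir466k with 14. The RefSeq table (GRCm38.p6) matched 9 of the 10 outside copies and 0 of the 119 members. The 5 mature sequences printed here were chosen after their values were seen. They are representatives of the Mir466, Mir467 and Mir669 names, the 1 outside copy with any count, and the seed whose letters occur in every detected member. Capitals mark the seed.
mmu-miR-466q: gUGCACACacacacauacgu
mmu-miR-466k: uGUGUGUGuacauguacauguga
mmu-miR-669n: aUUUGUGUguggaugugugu
mmu-miR-467h: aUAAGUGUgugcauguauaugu
mmu-miR-466i-3p: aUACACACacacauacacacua
They lie on the plus strand at chr3:28419988-28420007 (miR-466q), chr3:85467396-85467418 (miR-466k), chr3:115979905-115979924 (miR-669n), chr9:115381898-115381919 (miR-467h) and chr13:17747552-17747573 (miR-466i-3p).

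The seed letters of these mature strands, read as DNA and looked for on the gene strand of each hairpin, occurred in between 1 and 60 of the members. The letters of the miR-466i-3p seed occurred in 60 member hairpins (50.4%) and in 5.76% of the counted genes outside Sfmbt2. All 7 detected members held them, which is how this seed was chosen. The miR-466k seed letters occurred in 50 members (42.0%, against 7.68% outside), and the miR-466q letters in 30 (25.2%, against 1.34%). Those of miR-669n occurred in 10 members (8.40%, against 2.26%). The miR-467h letters occurred in 1 member, Mir467e (0.840%, against 0.624% outside). Of all the seeds of outside copies searched, that of miR-467g, whose sequence is not shown, was in the most members, 78 (65.5%, against 3.12% outside), 5 of them detected. Such a match says that the letters are in the hairpin, not that a mature strand starts there.

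Shorter repeats marked the array as a whole. TGTGTG was found on the gene strand of 110 member hairpins (92.4%) and of 12.4% of the genes outside, and CACACA, its reverse complement, of 99 (83.2%) and 8.31%. TAAGTG, which lies within the miR-467h seed, was found in 15 members (12.6%, against 1.54% outside), and these included all 14 Mir467 genes. GTATGT occurred in 38 members (31.9%, against 5.90%), and none of them was a Mir467 gene. ATATAT occurred in 10 (8.40%), beside 6.05% of the genes outside. The median GC content of a member hairpin was 37.3%, against 50.8% over all counted genes. Member hairpins were 73 to 127 bases long, with a median of 98 bases beside 89 over all counted genes.

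Sfmbt2 (ENSMUSG00000061186.15) spans chromosome 2 from 10370510 to 10595253 on the plus strand of mm10. All 119 members lay in 1 intron of it, intron 10 of 22 of the transcript Sfmbt2-201, from 10461473 to 10523944 (62.472 kb). The first member started 94.777 kb after the gene start and the last ended at 147.769 kb, a span of 52.993 kb. The gap between neighbouring members had a median of 206 bases and ranged from 70 to 2575 bases. No counted gene lay on the opposite strand of Sfmbt2, and the opposite strand columns held 0 counts for the members in both libraries, beside 992027 and 1748008 counts over all genes.

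The gene strand totals over all microRNA genes were 3748432 counts in replicate 1 and 6305782 in replicate 2, so that 1 count equals 0.267 and 0.159 CPM, or counts per 1000000 counts. Multi-mapping reads, those with several positions in the genome, enter no gene's count and made up 36.8% of the reads of replicate 1 and 48.1% of those of replicate 2. Among microRNA genes listed as cell type markers, 6 of 7 cardiac muscle genes were detected and summed to 8318 and 12455 CPM. The cardiac list holds paired copies of Mir1a and Mir133a, and reads that map to both copies of a pair enter no sum. The endothelial and smooth muscle genes were all detected (89738 and 100994 CPM, and 44790 and 53313 CPM). The sums of different lists therefore do not rank the cell types. The erythroid genes, of which 2 of 3 were matched, summed to 9908 and 8704 CPM, the leukocyte genes to 1959 and 2192, the epithelial genes to 468 and 543, and the hepatocyte gene to 57.9 and 77.7. The 6 neural genes had 2 counts in each library, with Mir9-2 and the Mir124a genes at 0. The pluripotent cell genes, of which 1 of 8 was detected, summed to 10.7 and 11.3 CPM, with Mir290a, Mir291a and Mir295 at 0. Because the tissue was measured in bulk, fewer cells of a type and less RNA per cell cannot be told apart for any level given here.

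The cluster as a whole took a small share of the heart's counted microRNA. The 119 members summed to 5664 counts in replicate 1 and 6750 in replicate 2, or 1511 and 1070 CPM. Their share of the gene strand counts was 0.151% in replicate 1 (95% exact Clopper-Pearson interval 0.147 to 0.155%) and 0.107% in replicate 2 (0.105 to 0.110%), with a mean of 0.129% ± 0.0312 (SD, n = 2). These intervals, and all others below, cover counting error only and hold no spread between libraries. No molecular identifiers are named for these reads, so reads copied from 1 molecule cannot be told apart and the intervals may be too narrow.

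Of the 119 members, 17 had any count, 10 had a count in both libraries, and 7 were detected, meaning at least 10 counts in both libraries. The detected share was thus 5.88%, beside 15.4% of all 2202 counted genes. The other 102 members (85.7%) had no count in either library, against 66.7% of all counted genes. A count of 0 allows up to 3 counts, which is 0.800 CPM in replicate 1 and 0.476 CPM in replicate 2. The 7 detected members held 99.7% of the cluster's counts in replicate 1 and 99.5% in replicate 2.

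**Figure D1:**
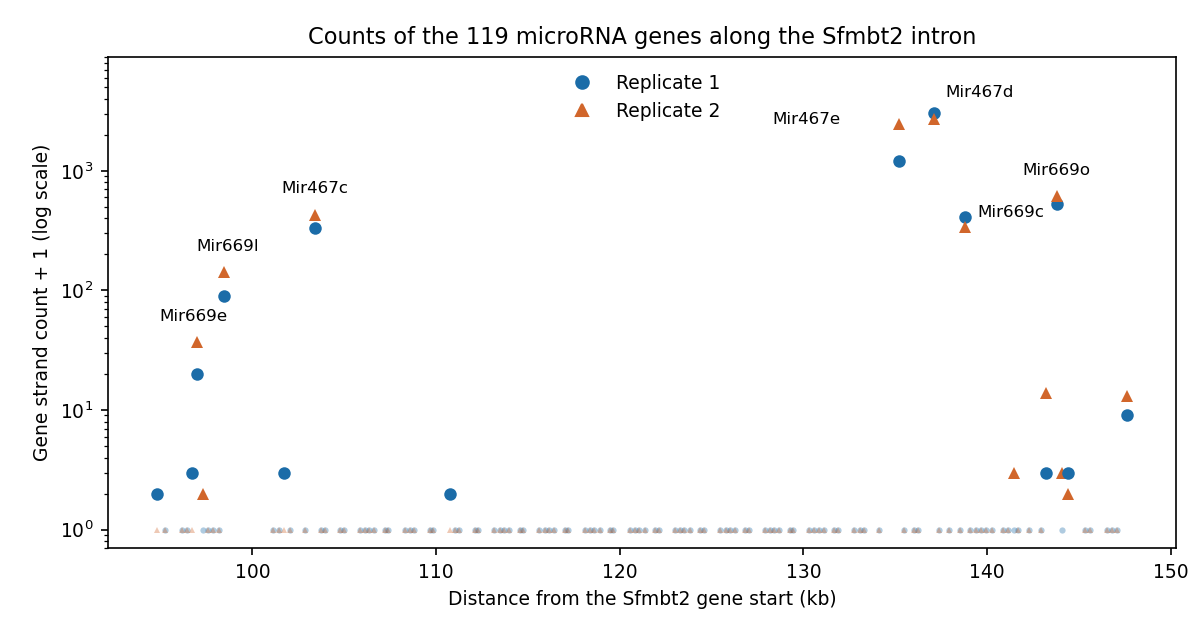
The horizontal axis is the distance of each member from the Sfmbt2 gene start in kb, and the vertical axis is its gene strand count plus 1 on a log scale, with circles for replicate 1 and triangles for replicate 2 (small pale marks are counts of 0). The 7 detected members stand at both ends of the array, and the 72 members between Mir467c and Mir467e hold 1 count in all.

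Mir467d (ENSMUSG00000077021.2, chromosome 2, 10507630 to 10507714) was the most abundant member by mean level. It had 3063 counts in replicate 1, which is 817 CPM (788 to 847), and 2689 counts in replicate 2, which is 426 CPM (410 to 443). The intervals do not overlap, and replicate 1 was the higher. Its mean of 622 ± 276 CPM (SD, n = 2) placed it at rank 85 of all counted genes. It made up 54.1% of the cluster's counts in replicate 1 and 39.8% in replicate 2.

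Mir467e (ENSMUSG00000076948.2, 10505721 to 10505807) lies before Mir467d in the array, with 3 members that had no count between them, and is its closest relative among all members, with hairpins 92.0% identical (7 edits over 87 bases). It had 1206 counts (322 CPM) in replicate 1 and 2469 counts (392 CPM) in replicate 2, a mean of 357 ± 49.4 CPM (SD, n = 2) and rank 104. Here replicate 2 was the higher, the opposite order from Mir467d. Together the pair held 75.4% of the cluster's counts in replicate 1 and 76.4% in replicate 2.

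Mir467c (ENSMUSG00000077049.2, 10473931 to 10474027) was the detected Mir467 gene at the other end of the array. It had 332 counts (88.6 CPM) in replicate 1 and 430 counts (68.2 CPM) in replicate 2, a mean of 78.4 ± 14.4 CPM (SD, n = 2). With it, Mir467 genes made up 81.3% and 82.8% of the cluster's counts, from 14 genes of which 4 had a count and 3 were detected. The other Mir467 gene with a count was Mir467b, with 1 count in replicate 1 and 0 in replicate 2.

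The 29 Mir669 genes, of which 7 had a count and 4 were detected, gave 18.6% and 16.9% of the cluster's counts. Mir669o (ENSMUSG00000077086.1, 10514300 to 10514395) had 526 counts (140 CPM) in replicate 1 and 616 counts (97.7 CPM) in replicate 2. Mir669c (ENSMUSG00000076118.1, 10509296 to 10509404) had 412 counts (110 CPM) and 337 counts (53.4 CPM). Both were higher in replicate 1 on the CPM scale. Their means were 119 ± 30.1 CPM and 81.7 ± 39.9 CPM (SD, n = 2).

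The remaining detected Mir669 genes were lower, and for each the counting intervals of the 2 libraries overlapped. Mir669l (ENSMUSG00000076959.1, 10468971 to 10469068) had 88 counts (23.5 CPM) in replicate 1 and 142 counts (22.5 CPM) in replicate 2. Mir669e (ENSMUSG00000080653.1, 10467495 to 10467613) had 19 counts (5.07 CPM) and 36 counts (5.71 CPM). From Mir669e to Mir467d the mean levels of the detected members ran from 5.39 to 622 CPM.

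**Figure D2:**
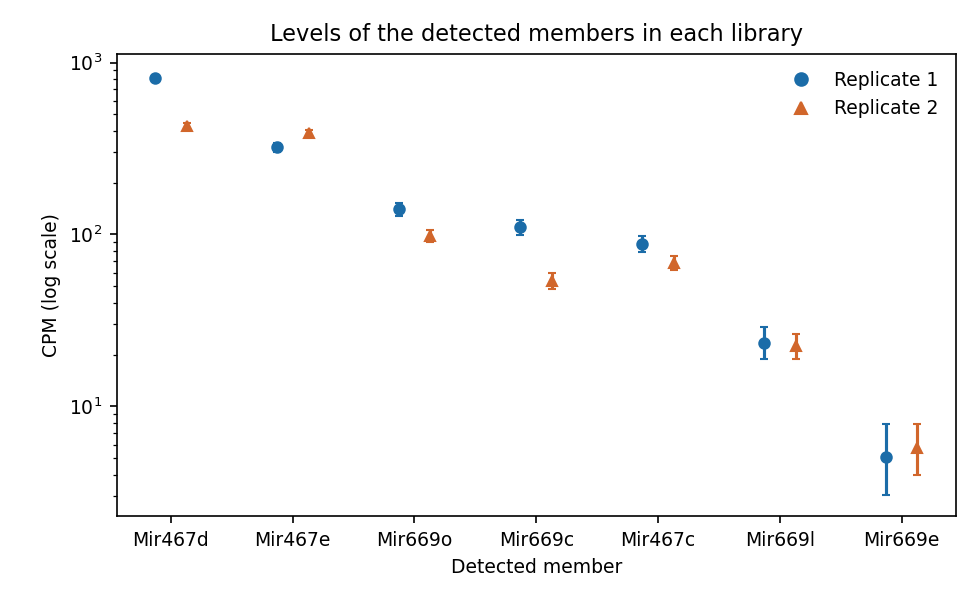
The vertical axis is CPM on a log scale for each of the 7 detected members, with circles for replicate 1, triangles for replicate 2 and bars for the exact 95% interval of counting error. Mir467d is at 817 and 426 CPM and Mir669e at 5.07 and 5.71 CPM, and Mir467e is the member whose interval in replicate 2 lies above that in replicate 1.

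Not every step of this order exceeded the spread between the libraries. Within a library, the log2 ratio of Mir467d over Mir467e was 1.34 in replicate 1 and 0.12 in replicate 2, a mean of 0.73 ± 0.86 (SD, n = 2), so these neighbours do not differ beyond their spread. In linear terms Mir467d was 2.54 times Mir467e in replicate 1 and 1.09 times in replicate 2. Mir669c and Mir467c changed places, with log2 ratios of 0.31 and -0.35. Mir467e over Mir669o was 1.20 and 2.00 on the log2 scale, and Mir669o over Mir669c was 0.35 and 0.87, both in the same order in each library. The lower steps were the most alike, at 1.92 and 1.60 for Mir467c over Mir669l and at 2.21 and 1.98 for Mir669l over Mir669e.

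Below the detection threshold, 10 members held 18 counts in replicate 1 and 31 in replicate 2. Mir669h, the last member of the array, had 8 and 12 counts, and Mir466n had 2 and 13. Mir466h had 2 and 1. Each of the others had reads in 1 library only, with Mir669f and Mir297a-2 at 2 counts and Gm22072 and Mir467b at 1 count in replicate 1, and with Mir466d and Mir466g at 2 counts and Mir669b at 1 count in replicate 2. Leaving Mir669h and Mir466n aside, no level among these exceeded the 3 counts that a reading of 0 allows.

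The Mir466 and Mir297 genes thus had few counts, which leave out reads with several mapping positions. The 23 Mir466 genes, of which 4 had a count and 0 were detected, summed to 4 counts in replicate 1 and 18 in replicate 2. The 5 Mir297 genes summed to 2 counts and 0. The 48 Gm genes had 1 count in replicate 1 and 0 in replicate 2. Grouped by the named member with the most similar hairpin, most of the Gm genes fell to Mir669, which raised that family to 73 members, with Mir466 at 25, Mir467 at 15 and Mir297 at 6.

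Along the intron the counted reads came from the flanks of the array. Mir669e, Mir669l and Mir467c started no more than 103.421 kb from the gene start, and Mir467e, Mir467d, Mir669c and Mir669o between 135.211 and 143.790 kb. The stretch between Mir467c and Mir467e, from Mir466b-1 to Gm26398, covered 30.555 kb and held 72 members. Its only counted read was the 1 count of Mir467b in replicate 1. Of these 72 members, 52 had no 22-base window of their own, that is, every 22-base piece of the hairpin also occurs in the hairpin of another counted gene at another place.

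Over the array the same few hairpins recur with medians of spacing close to each other and some wider gaps. The 10 Mir467a copies followed each other at a median of 2462 bases (2413 to 4880), the 12 Mir669a copies at 2457 bases (2420 to 6373) and the 8 Mir466b copies at 2470 bases (2409 to 9795). None of these genes had a count. The median identity between copies was 98.8% for Mir467a, 100% for Mir669a and 93.7% for Mir466b. Of the Mir669a copies, the named source of the MyoD repressor mentioned above, 11 of 12 had no window of their own. For the Mir467a copies it was 10 of 10, and for Mir466b 6 of 8.

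Sequence held in common is a property of most members. A stretch of at least 20 bases was shared with another counted hairpin by 117 of the 119 members (98.3%), against 49.4% of all counted genes. For 116 members the partner was another member, and for 33 it was a gene outside Sfmbt2. Hairpins identical to that of another counted gene numbered 47. The closest relative among the members was at least 90% identical for 88 of the 119, with a median of 97.6%. A read that lies wholly in such shared sequence has several mapping positions and enters no count, so a 0 for these genes limits the reads of their own sequence and not the microRNA that the copies make together.

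The counts varied with this property. Of the 54 members with no window of their own, 0 had a count. Of the 37 members with up to 50% of their windows to themselves, 4 had a count and 1, Mir467d, was detected. Of the 28 members with more than 50%, 13 had a count (46.4%) and 6 were detected. Among genes outside Sfmbt2 the shares with a count were 1.65% of 243, 2.38% of 294 and 45.6% of 1546 genes. In the class with more than 50% of windows to themselves, members and other genes thus had a count in like shares. The class with no window held 45.4% of the members and 11.7% of the genes outside, and no test was made of that difference.

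**Figure D3:**
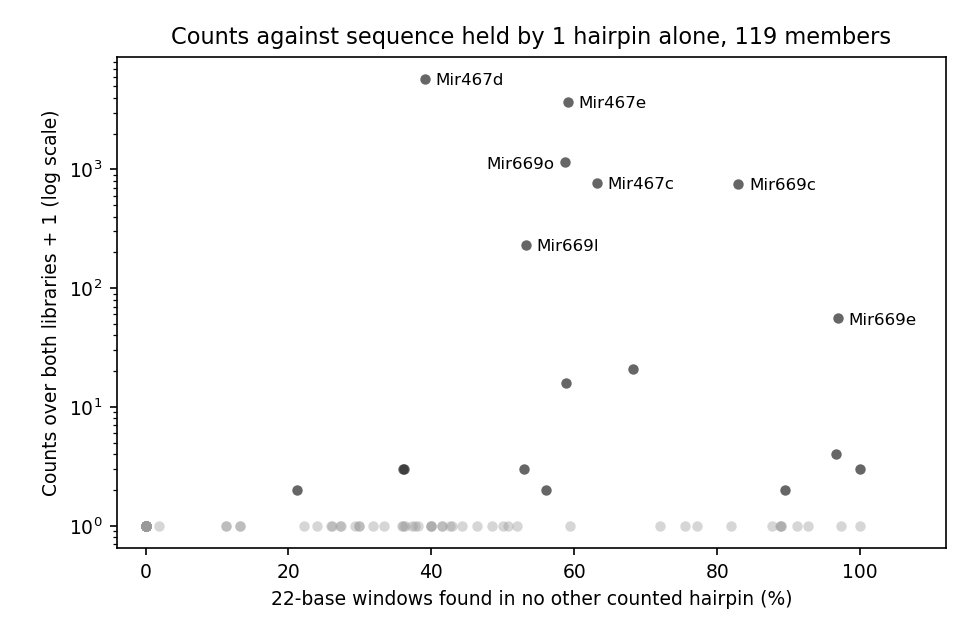
The horizontal axis is the percentage of a hairpin's 22-base windows that no other counted hairpin holds, and the vertical axis is the member's counts over both libraries plus 1, on a log scale. No member at 0% has a count, Mir467d stands at 39.1%, and the other 6 detected members lie between 53.2 and 96.9%.

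Some members that share little sequence with other counted hairpins also had no count. Of the 14 members with at least 80% of their windows to themselves, 5 had a count and 2 were detected, Mir669c at 83.0% and Mir669e at 96.9%. The other 9 had no count in either library. Among them was Gm22239, named after its values were seen, none of whose windows occur in another counted hairpin. The rest of the genome was not searched, so reads of these members may still have several mapping positions. The most abundant member, Mir467d, had 39.1%. The detected members Mir669l, Mir669o, Mir467e and Mir467c lay at 53.2%, 58.7%, 59.1% and 63.2%.

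Within the hairpin, the windows of its own were unevenly placed for some of the detected members. In Mir467d, 19 of the 32 windows that start towards the 5′ end (59.4%) were found in no other counted hairpin. Towards the 3′ end it was 6 of the 32 (18.8%). In Mir467e the shares of the 5′ and 3′ parts were nearly even, at 60.6% and 57.6%. In Mir467c they were 47.4% and 78.9%, and in Mir669c 65.9% and 100%. Mir669o had 67.6% and 50%, and Mir669e had 100% and 93.9%. Mir467b, whose hairpin differs from that of Mir467a-1 by 2 edits over 73 bases, had 0% in the 5′ part and 42.3% in the 3′ part.

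The detected members ranged from distant to close relatives. Over all pairs among the 7, hairpin identity ran from 54.6% to 92.0%, with a median of 65.3%. Mir467c was 83.5% identical to Mir467d. Mir669o stood nearest to the undetected Mir669a-1, at 92.8%.

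The 2 libraries were then set against each other for each gene with at least 10 counts in both. An exact two-sided binomial test compared a gene's counts with the ratio of TMM-scaled library sizes, and p-values were adjusted by Benjamini-Hochberg over all 340 such genes. The test asks whether the libraries differ by more than counting error, and no condition is compared. Of the 7 detected members, 5 were called, beside 72.1% of all genes tested. Mir467e was called higher in replicate 2, beside 34.1% of all genes in that direction, and 4 members were called lower, beside 37.9%. With 7 members these counts do not set the cluster apart from the genes around it.

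Mir669c fell by 0.90 on the log2 scale from replicate 1 to replicate 2 (95% interval -1.11 to -0.69, adjusted p = 6.91e-17, exact binomial test). Mir467d fell by 0.80 (-0.87 to -0.72, adjusted p = 6.20e-96, exact binomial test), which is 1.74-fold. Mir669o fell by 0.38 (-0.55 to -0.21, adjusted p = 2.11e-05, exact binomial test). The direction of these 3 was the same under every scaling tried. Mir467e rose by 0.43 (0.33 to 0.53, adjusted p = 4.96e-17, exact binomial test), which is 1.34-fold.

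Mir467c passed the threshold narrowly, with a log2 ratio of -0.23 (-0.44 to -0.02, adjusted p = 0.0373, exact binomial test). Its call was lost under 3 of the 5 alternatives run. The adjusted p of the exact binomial test was 0.180 with DESeq2 size factors and 0.0717 with no count minimum. It was 0.0543 with the column taken as both strands. Mir669l (0.08, -0.31 to 0.48, adjusted p = 0.725, exact binomial test) and Mir669e (0.31, -0.53 to 1.20, adjusted p = 0.560, exact binomial test) were not called, and their intervals span 0. On library totals in place of TMM the ratio of Mir669l was -0.06, and that scaling moves all log2 ratios down by 0.14.

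**Figure D4:**
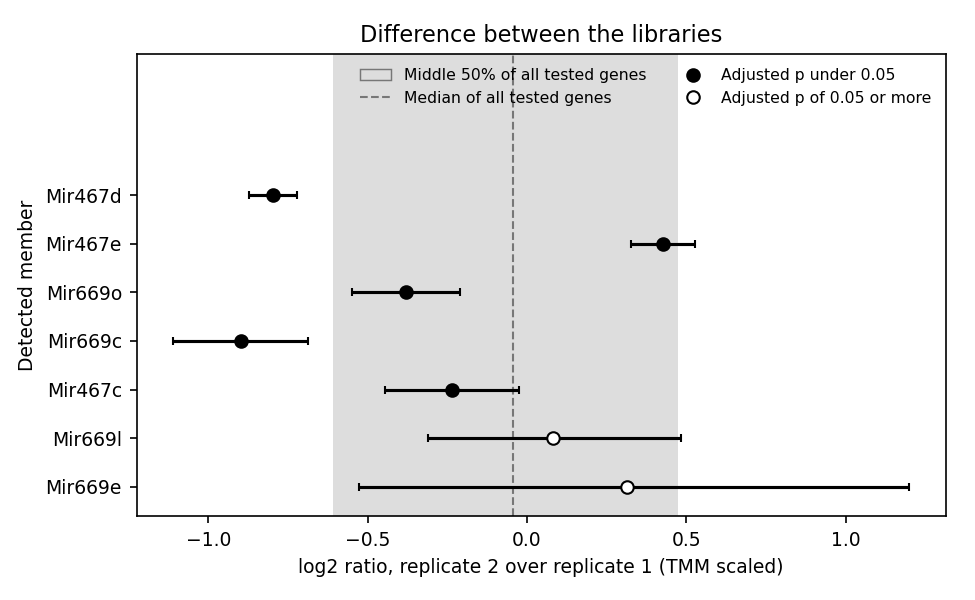
The horizontal axis is the TMM-scaled log2 ratio of replicate 2 over replicate 1 for each of the 7 detected members, with exact 95% intervals, filled points for an adjusted p under 0.05 and open points otherwise. The grey band is the middle 50% of all 340 tested genes (-0.61 to 0.47) and the dashed line their median (-0.05); Mir669c and Mir467d lie below the band.

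The members' ratios lay within the range usual for these libraries. Their median log2 ratio was -0.23, against -0.05 over all 340 genes, and their median absolute log2 ratio was 0.38, against 0.54. A difference of 2-fold or more was reached by 0 of the 7 members and by 69 of the 340 genes. The summed counts of the cluster gave a log2 ratio of -0.35 (-0.41 to -0.30), a 1.28-fold lower level in replicate 2. Without Mir467d the log2 ratio of the sum was 0.03 (-0.04 to 0.11). That remainder joined Mir467e, which was higher in replicate 2 (0.43), with Mir669c (-0.90), Mir669o (-0.38) and Mir467c (-0.23), which were lower. The sum of the members other than Mir467d thus showed no net fall, while single members in it moved in both directions. Reads with several mapping positions made up 36.8% and 48.1% of the libraries, moving with the lower level in replicate 2, and their part in it was not tested.

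The family copies outside Sfmbt2 had almost no counts in heart, and these too leave out reads with several mapping positions. Of the 10 counted genes named Mir466, Mir467, Mir669 or Mir297 elsewhere in the genome, 0 were detected. Mir466q on chromosome 3 (ENSMUSG00000092990.1, 28419943 to 28420018) had 0 and 3 counts, the latter 0.476 CPM, and the other 9 had no count. More widely, 126 genes outside Sfmbt2 share a stretch of 20 bases with a member, of which 1 had a count and 0 were detected.

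A large imprinted array of another kind, the Dlk1-Dio3 microRNA genes from Mir431 to Mir410, was read far more completely. Of its 49 genes 39 were detected (79.6%, against 5.88% of the Sfmbt2 members), and they summed to 1.60% and 1.14% of all counts. None of those 49 genes lacked a window of its own, and the median gene had 100% of its windows to itself, against 21.2% for the Sfmbt2 members. Among the genes that were detected, the median level was 46.4 CPM for 39 genes of that array and 81.7 CPM for 7 Sfmbt2 members. These medians leave out the genes below the threshold, so they do not rank the arrays. No test was made of the differences between the arrays.

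Set beside 15 microRNA genes of other imprinted loci, the leading Sfmbt2 members fell in the middle of the range of counted levels. The 15 had 100% of their windows to themselves, against 39.1% for Mir467d and 59.1% for Mir467e, so the levels are not like for like. The list includes Mir431, Mir410 and other genes of the Dlk1-Dio3 array above. All 15 were detected, and 6 had a mean level above Mir467d: Mir335 (12191 and 20015 CPM in replicates 1 and 2), Mir127 (4788 and 2404), Mir379 (3000 and 3030), Mir411 (2661 and 2208), Mir541 (1493 and 927) and Mir298 (1723 and 342). Between Mir467d and Mir669e lay 8 genes, from Mir483 (719 and 366 CPM) and Mir296 (673 and 361 CPM) through Mir431, Mir434, Mir154 and Mir433 to Mir136 (5.60 and 11.1 CPM) and Mir675 (5.60 and 7.61 CPM). Mir410, with 5.60 and 3.17 CPM, was below Mir669e. Of these 15 genes 3 were called higher in replicate 2 and 9 lower, beside 34.1% and 37.9% of all 340 genes tested.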

How the data were processed

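The authors deposited raw counts per microRNA gene, 1 table per library, on mm10 with GENCODE M21 per the deposited text; no aligner or counter is named, as these were not given in the sources used here. Counts on the strand of the gene were used, the column's meaning inferred from the values, and 4 entries that name no gene were left out. Reads with several mapping positions are in no gene's count. All 2202 identifiers matched GENCODE M21, whose transcript sequences gave the hairpins. Differences of the CAST/EiJ allele from these sequences were not examined. A genome sequence was not used here, so the planned search for genomic copies of mature sequences was replaced by a comparison of hairpins in 22-base windows on both strands, leaving out overlapping genes at 1 place.

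CPM are counts per 1000000 gene strand counts. They were not divided by hairpin length, because small RNA reads cover a mature strand of like length in each gene. Detection required 10 counts in both libraries. Library sizes were scaled by TMM (edgeR 4.0.16, R 4.3.3), and exact binomial tests used scipy 1.17.1 with a threshold of 0.05 on adjusted p. Log2 ratios are replicate 2 over replicate 1 with no prior count. Identity is 100% less edits over the longer hairpin (edlib 1.3.9.post1). Counts simulated with counting error only gave 329 genes to test. Of unchanged genes 1.22% were called, and of genes changed by 0.5, 1 and 2 on the log2 scale 59.3%, 73.3% and 100%. The simulation held no other spread between libraries, so 1.22% is not an error rate for the real libraries, where 72.1% of tested genes were called.

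Members, gene lists and tests were chosen with earlier results of these data known. Named genes are every detected member, the further members in order of mean CPM as far as any had a count (17 in all), the outside copy with a count, and the list of other imprinted genes. Members with no count (Gm22239, the repeated Mir467a, Mir669a and Mir466b copies) and the outside copies at 0 whose sequence or seed is given were named after their values were seen. Alternatives for scaling and counting were total counts, DESeq2 1.42.0 size factors, other count minimums and the column taken as both strands. The others were each library left out, the sum without its leading member, and other lengths of shared sequence.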

Additional observations from a re-analysis of the deposited data

How the results depend on the processing

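Among 35 alternative values for the log2 ratios of single members, 31 kept their direction and their side of the threshold. Much of this was set by construction. Another count minimum leaves a log2 ratio unchanged, and the other alternatives shift all members by the same amount. Of the rest, 3 lost the call of Mir467c and 1 turned the direction of Mir669l. The ratio of Mir669l was -0.0601 with total counts (adjusted p = 0.826, exact binomial test), and Mir669l was called in neither fit. The number of members called was 4 or 5 under every alternative. The summed log2 ratio moved from -0.35 to -0.50 with total counts and to -0.28 with DESeq2 size factors, and turned to 0.0348 without Mir467d, in each case by the construction of the alternative. The share of counts moved from 0.129% to 0.0519% with all reads as the denominator and to 0.0669% without Mir467d. It ranged from 0.107 to 0.151% with 1 library left out. It was 0.177% with the column taken as both strands. There the members' counts were unchanged, and 316 of all genes reached 10 counts in both libraries, against 340. The total of that column was thus smaller, and it is not a sum of the strands. The number of detected members was 8 at a minimum of 5 counts, 6 at 20 counts, 10 at 1 count, and 7 to 9 with 1 library left out. Members that share a stretch with another hairpin numbered 117 at 18 bases and 113 at 25 bases, and members with no window of their own 54 and 53 at those lengths, chosen after seeing the data, with 0 counts at either. The planned count of members whose mature sequence occurs once in the genome was not run, since no genome sequence was used here. No paired analysis was possible because the libraries form 1 group. Depth limits single members to 0.800 and 0.476 CPM at 0 counts.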
